A study of Mus musculus with 16 samples.

Results

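The 4 arrays of CD4 T cell cultures that received ezetimibe under Th17 conditions (Eze) were compared with the 4 arrays of cultures under the same conditions without a drug (Th17), across 30920 genes. The members were taken by array title, 8 of the 16 arrays of the series, and no measured value was used to choose them. The other 8 arrays, 4 of cells kept out of Th17 conditions (Th0) and 4 of Th17 cultures with rosuvastatin (Rsv), entered the same model and served as references for genes described in Eze. All cultures came from the spleens of wild-type male mice, 8 weeks old, of a strain that the labels spell C54BL/6, while the methods name BALB/c mice for work in vitro. The labels give CD4 T cells, a culture of 3 days and 20 µM of either drug. The methods describe spleen cells cultured with plate-bound anti-CD3, anti-CD28, antibodies to interferon-γ and IL-4, TGF-β and IL-6, and the sources differ on whether ezetimibe was present for 1 or for 3 days. The paper calls the Th0 cells naïve T cells and does not say whether they received anti-CD3 and anti-CD28. Th0 may therefore differ from the other groups in more than the Th17 conditions. A vehicle is not named for the cultures without drug, so the comparison holds ezetimibe together with its solvent, if one was used. The sources used here do not say whether the 4 arrays of a group stand for separate mice or cultures. The p-values therefore rest on the spread from array to array within a group, which may be technical.

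Th17 cells are helper T cells that arise when antigen stimulation meets TGF-β and IL-6. They are defined by IL-17A and IL-17F and by the receptor for IL-23, and they act in autoimmune joint and spine disease. Ezetimibe lowers blood cholesterol by blocking NPC1L1, the sterol transporter of the intestinal brush border, whereas rosuvastatin, a statin, blocks cholesterol synthesis inside cells. When a cell is short of sterol, the SREBP factors switch on the genes of sterol synthesis and uptake. When it is short of amino acids or its endoplasmic reticulum is overloaded, the factor ATF4 switches on genes of amino acid supply.

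Values are log2 signals, so that a difference of 1 is a doubling, and a level may be compared between groups for 1 gene but not between genes. A gene was called higher or lower at a Benjamini-Hochberg adjusted p under 0.05 in limma over all genes. Between Eze and Th17, 6706 genes (21.7%) were called, 3465 higher (11.2%) and 3241 lower (10.5%), and these shares over all genes stand beside every list below. Genes with more signal were called more often. Of the 5694 genes with a mean above the background of the array, which is defined below, 2156 were higher and 1827 lower when tested alone. A list made mostly of such genes has to be read against these larger shares. The 4 Eze and 4 Th17 values did not overlap for 7880 genes (25.5%). The median difference over all genes was -0.04. With each array centred on its own median it was 0.03 and 3999 genes were higher and 2236 lower, so that the share of calls that were higher moved from 51.7% to 64.1%, while 5701 calls kept their direction and 0 turned. Differences beyond 1 on the log2 scale were called for 299 genes upwards and 315 downwards, and differences beyond 2 for 12 and 26.

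Before the single genes, the labels were set against markers. Cd4 lay at 10.38, 10.59, 10.66 and 10.60 in Th17 and at 9.95, 10.17, 10.25 and 10.27 in Eze, and 11 of 11 CD4 T cell markers measured were above the background of the array in at least 1 of the groups. That background is a log2 value of 6.78, the 95th percentile of 23 control features that match no genome, and 5694 genes had a mean above it in Eze or in Th17. It is a strict cutoff, since the mean of these control features was 3.36 to 3.53 on Th17 arrays and 3.35 to 3.51 on Eze arrays. A gene below it may still be expressed. Values for single arrays are given below with the unnumbered array first and then the numbered arrays 1, 2 and 3. The column names of the unnumbered arrays carry another prefix than those of the numbered ones in each group, and values within either set are given where they part. Of these 11 markers, 2 were higher and 7 lower in Eze, with Cd3g at -0.90 and Thy1 at 0.41. B cell markers, which would be low in pure T cells, were not absent. Of 20 markers 4 lay above background in the higher group, 13 were higher in Eze and 1 was lower (H2-Ab1, -0.68). Their mean log2 level ran from 5.12 to 5.24 in Th17, from 5.67 to 5.71 in Eze, from 5.21 to 5.34 in Rsv and from 6.42 to 6.55 in Th0. The class II invariant chain gene Cd74 went from 7.94, 7.84, 7.93 and 7.99 in Th17 to 9.05, 8.98, 9.01 and 8.96 in Eze, the B cell receptor complex gene Cd79a was 0.77 higher, and the scaffold gene Bank1 was 1.14 higher. Pax5, the defining B cell factor, was 0.98 higher on its brighter feature and 0.36 higher on the other, with both features at low levels. Of 17 natural killer and cytotoxic markers 10 fell and 0 rose, and their mean level was 5.54 to 5.59 in Th17 and 4.90 to 5.01 in Eze. Gzma, a granzyme gene of cytotoxic cells, stood at 8.13, 8.02, 8.07 and 8.09 in Th17 and at 5.32, 5.38, 5.45 and 5.54 in Eze. Of 23 myeloid markers 3 were higher and 6 lower (mean level 4.50 to 4.62 in Th17 and 4.35 to 4.43 in Eze), counts of 3 and 3 when arrays were centred. The 7 plasma cell markers had 0 higher and 3 lower, and none of 12 erythroid and platelet markers was called in either direction. In a bulk culture, fewer cells of a type and less RNA per cell cannot be told apart, and the part of these other cells in the results that follow was not tested. RNA and labelling quality, read as the area under the curve that separates exon from intron controls, was 0.876 to 0.881 in Th17 and 0.890 to 0.894 in Eze, without overlap between the groups, and its part in the results was not tested either. By mean Euclidean distance over genes, Eze arrays lay 71.8 from Th17 arrays, against 41.9 among themselves and 46.3 among Th17 arrays.

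The largest increase was in Il9, which encodes IL-9, a cytokine of Th9 cells that Th17 cells can also express. Its levels were 4.69, 4.90, 4.68 and 4.49 on the 4 Th17 arrays and 10.48, 10.35, 10.45 and 10.41 on the 4 Eze arrays. All Eze values stood far above all Th17 values, with a measured difference of 5.73 (SE 0.12, adjusted p = 2.76e-15). The Th17 values lay below the background of the array, where a signal is not taken as a level here, so the difference is stated as a bound, at least 12.5-fold from the Eze mean over the background value. Anxa3, which encodes a calcium-dependent membrane-binding annexin, was next, at 5.65, 5.33, 5.12 and 5.35 in Th17 and 8.55, 8.48, 8.56 and 8.55 in Eze. The cationic amino acid transporter gene Slc7a3 went from 4.82, 4.93, 4.56 and 4.85 to 7.83, 7.88, 7.95 and 7.96. Again the groups lay apart, by measured differences of 3.17 (SE 0.14) and 3.12 (SE 0.10), or by at least 3.39-fold and 2.19-fold over the background. Cth encodes cystathionine γ-lyase, which makes cysteine, and rose from 6.23, 5.90, 5.58 and 6.25 to 8.88, 8.97, 8.94 and 8.89, a measured difference of 2.93, or at least 4.41-fold, with the Th17 arrays more spread than the Eze arrays. Il23a, which encodes the p19 subunit of IL-23, rose from 3.56, 3.51, 3.95 and 4.13 to 6.39, 6.55, 6.66 and 6.41, 2.72 higher, with both groups under the background, so that no fold is given. The other genes among the 15 largest increases were the mitochondrial folate enzyme gene Aldh1l2 (2.61, both means below background), the T cell receptor adaptor gene Trat1 (2.42), the Golgi membrane protein gene Paqr3 (2.14), the alanine transaminase gene Gpt2 (2.10), the lymphotoxin gene Lta (2.09), Il2 (2.08, below background), the large neutral amino acid transporter gene Slc7a5 (2.01), the membrane-shaping gene Reep6 (1.98), the asparagine synthetase gene Asns (1.90) and the serine synthesis gene Phgdh (1.82). In 12 of these 15 genes every Th17 array was below background, so their order by measured difference depends on values below that cutoff.

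**Figure D1:**
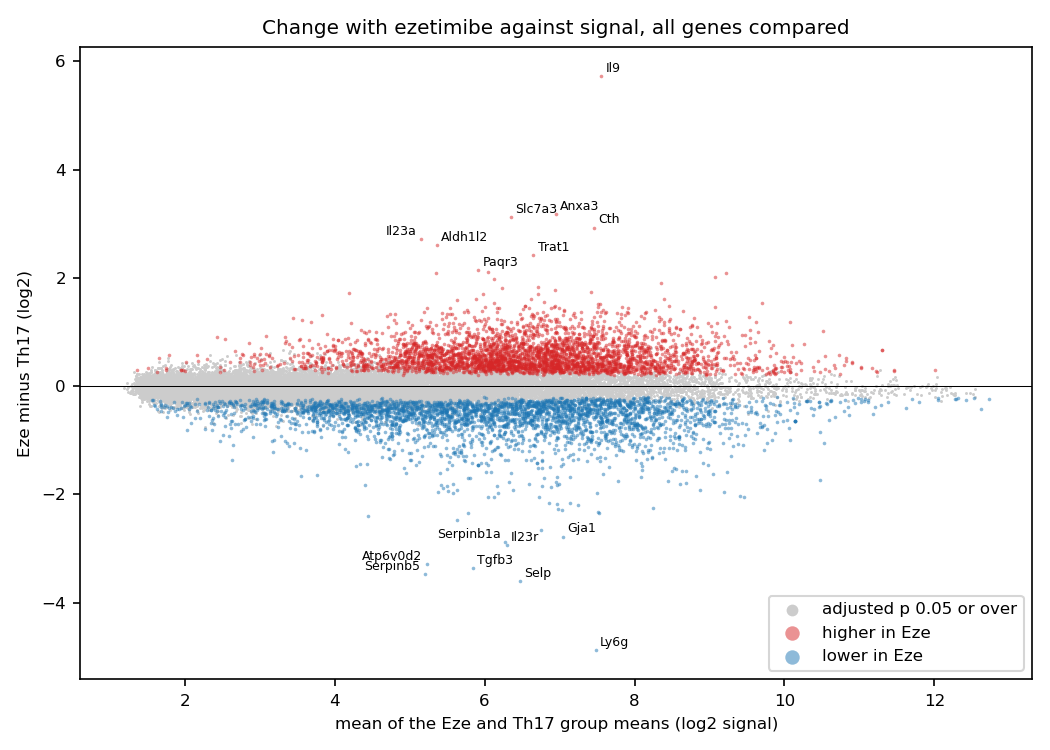
Difference between Eze and Th17 (y axis, log2) against the mean of the 2 group means (x axis, log2 signal), 1 point per gene of 30920, with called genes in red (higher in Eze) and blue (lower). The labelled points are the largest increases and decreases, with Il9 at 5.73 and Ly6g at -4.88 farthest from 0.

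Ly6g, known as a surface marker of neutrophils, showed the largest decrease. Its levels were 9.97, 9.86, 9.99 and 9.89 in Th17 and 5.13, 4.73, 4.98 and 5.35 in Eze, so that it dropped from well above background to below it. It fell by 4.88 as measured (SE 0.13), or at least 8.88-fold down to the background, and in Rsv and Th0 its mean was 4.86 and 4.77. Other defining neutrophil genes were below background in both groups: S100a8, S100a9, Csf3r and Mmp9 had Th17 means of 2.60, 3.79, 4.50 and 3.87 and Eze means of 2.44, 3.73, 4.47 and 3.79. Members of the Ly6 family are similar in sequence, and the deposited annotation marks the Ly6g feature as specific to 1 target. Selp, the gene of the adhesion molecule P-selectin, went from 8.22, 8.23, 8.32 and 8.35 to 4.43, 4.45, 4.99 and 4.82, with no overlap and at least 2.83-fold lower. The protease inhibitor genes Serpinb5 and Serpinb1a fell by 3.46 and 2.88. Tgfb3, a TGF-β gene that Th17 cells make, went from 7.58, 7.56, 7.51 and 7.44 to 4.25, 4.11, 4.12 and 4.19, a fall of 3.36 as measured (SE 0.08) and of at least 1.68-fold down to the background. Atp6v0d2, a subunit gene of the proton pump of acidic organelles, went from 6.93, 6.81, 6.81 and 6.92 to 3.72, 3.54, 3.68 and 3.40, below all Th17 values and at least 1.07-fold lower. The rest of the 15 largest decreases were Il23r (-2.93), the connexin gene Gja1 (-2.78), Gzma (-2.65), the laminin receptor gene Itga7 (-2.35), the IL-1 receptor gene Il1r1 (-2.34), the T cell kinase gene Txk (-2.33), the pseudokinase gene Trib2 (-2.29), the endosomal sorting gene Vps37b (-2.27) and the matrix protein gene Ecm1 (-2.25). In 14 of these 15 genes every Eze array was below background, Ecm1 being the exception, so that their measured differences and their order depend on values below the cutoff too. Over all 30 genes the largest SD within a group was 0.28 in Eze and 0.33 in Th17.

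**Figure D2:**
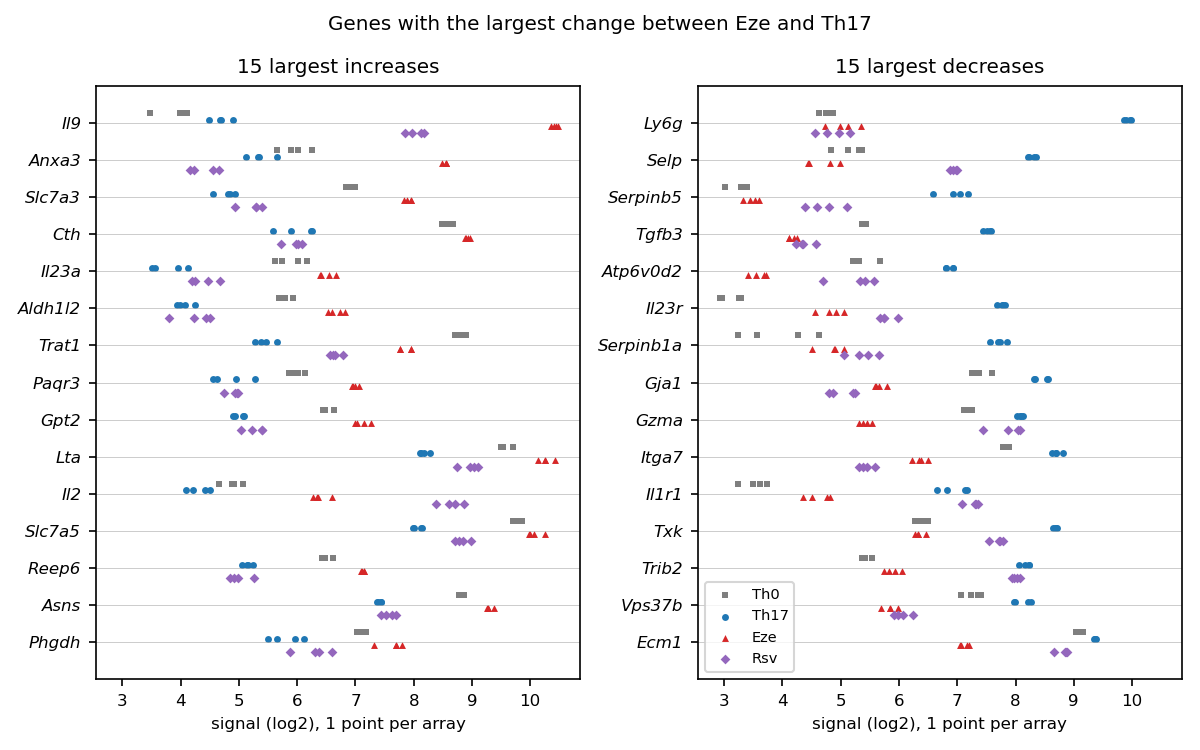
Signal (x axis, log2, 1 point per array) of the 15 largest increases (left) and the 15 largest decreases (right) in all 4 groups, with Eze as triangles, Th17 as circles, Th0 as squares and Rsv as diamonds. In every row the Eze and Th17 points are apart, while the place of Rsv and Th0 varies from row to row, with means of 8.03 and 3.90 for Il9.

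The gene of the known drug target was below the background of the array. Npc1l1 stood at 4.53, 4.29, 4.64 and 4.56 in Th17 and 4.43, 4.28, 4.66 and 4.41 in Eze, under the background value of 6.78 on every array. The groups overlapped, and the difference was -0.06 (95% interval -0.32 to 0.20, adjusted p = 0.818). Expression of the transporter was thus not detected at this cutoff. Among enzymes of cholesterol synthesis, 12 of 20 rose and 1 fell (Hsd17b7, -0.30), with a median difference of 0.37. With arrays centred 16 were higher and 0 lower, and the call of Hsd17b7 was lost. The sterol 14-demethylase gene Cyp51 went from 8.0, 8.01, 7.86 and 7.93 to 8.54, 8.81, 8.91 and 8.87, 0.83 higher (SE 0.12). Idi1, Dhcr7 and Fdps, which act before and after squalene, were 0.75, 0.62 and 0.54 higher. Hmgcs1, which acts early in the pathway, was 0.22 higher, a call that was lost without some single arrays. Mvd and Fdft1 did not pass, at 0.23 and 0.19. Against Rsv, the culture with the synthesis blocker, 1 of these 20 genes was higher in Eze and 4 were lower, where 13.3% of all genes were higher and 15.2% lower. With arrays centred these counts were 4 and 3, against 22% and 6.5% of all genes, so that each share against Rsv given here depends on the scaling. Cyp51 differed by 0.03 (adjusted p = 0.859). Against Th0, 18 were higher and 0 lower, where 11.7% and 10.9% of all genes were, or 19 and 0 with 15.1% and 5.84% of all genes when arrays were centred. These comparisons share the Eze arrays with the main one. Sterol response elements, searched as TCACNCCAC on both strands, were in 1 of 15 promoters of this list (6.67%) and in 1.45% of all promoters. That share rests on 1 promoter. Among the lysosomal and glycolysis genes described below the element was in 2 of 29 (6.9%) and 2 of 31 (6.45%), while many other lists held none.

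Genes of sterol uptake and control showed no common direction, with 5 of 16 higher and 3 lower. Soat2, which esterifies cholesterol, the SREBP protease gene Mbtps2 and the SREBP escort gene Scap were 0.84, 0.55 and 0.50 higher, while Soat1 fell by 0.31. Srebf2 and Insig1, the sterol-responsive factor and its inhibitor, did not pass (0.12 and 0.15). Npc2 and Npc1 carry cholesterol out of lysosomes. Npc2 went from 10.31, 10.24, 10.38 and 10.33 to 9.18, 9.03, 9.22 and 9.10, a fall of 1.18 (SE 0.07), and Npc1 fell by 0.38. Of 10 genes of sterol efflux and of the oxysterol receptor LXR, 2 were higher and 2 lower, and their median of -0.01 became 0.06 when arrays were centred. Abca1, which exports cholesterol, went from 6.34, 6.30, 6.13 and 6.19 to 5.84, 5.59, 5.72 and 5.82, a fall of 0.50, while its relative Abcg1 was 0.39 higher and the phospholipid remodelling gene Lpcat3 0.62 higher. Fatty acid synthesis genes rose in 8 of 16 cases, with a median of 0.38. Scd1, which desaturates stearate, went from 8.02, 7.92, 8.12 and 8.03 to 8.92, 9.12, 9.20 and 9.14. The synthase Fasn and the carboxylase Acaca were 1.09 and 1.05 higher, Fads2 and Fads1 0.88 and 0.72 higher and Acsl5 0.69 higher, while the elongase gene Elovl6 fell by 0.57. Against Rsv the test called fewer of these genes, Eze exceeding Rsv in 4 genes and lying below it in 2 (8 and 1 when centred), with Fasn at -0.04 and Scd1 at 0.78.

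**Figure D3:**
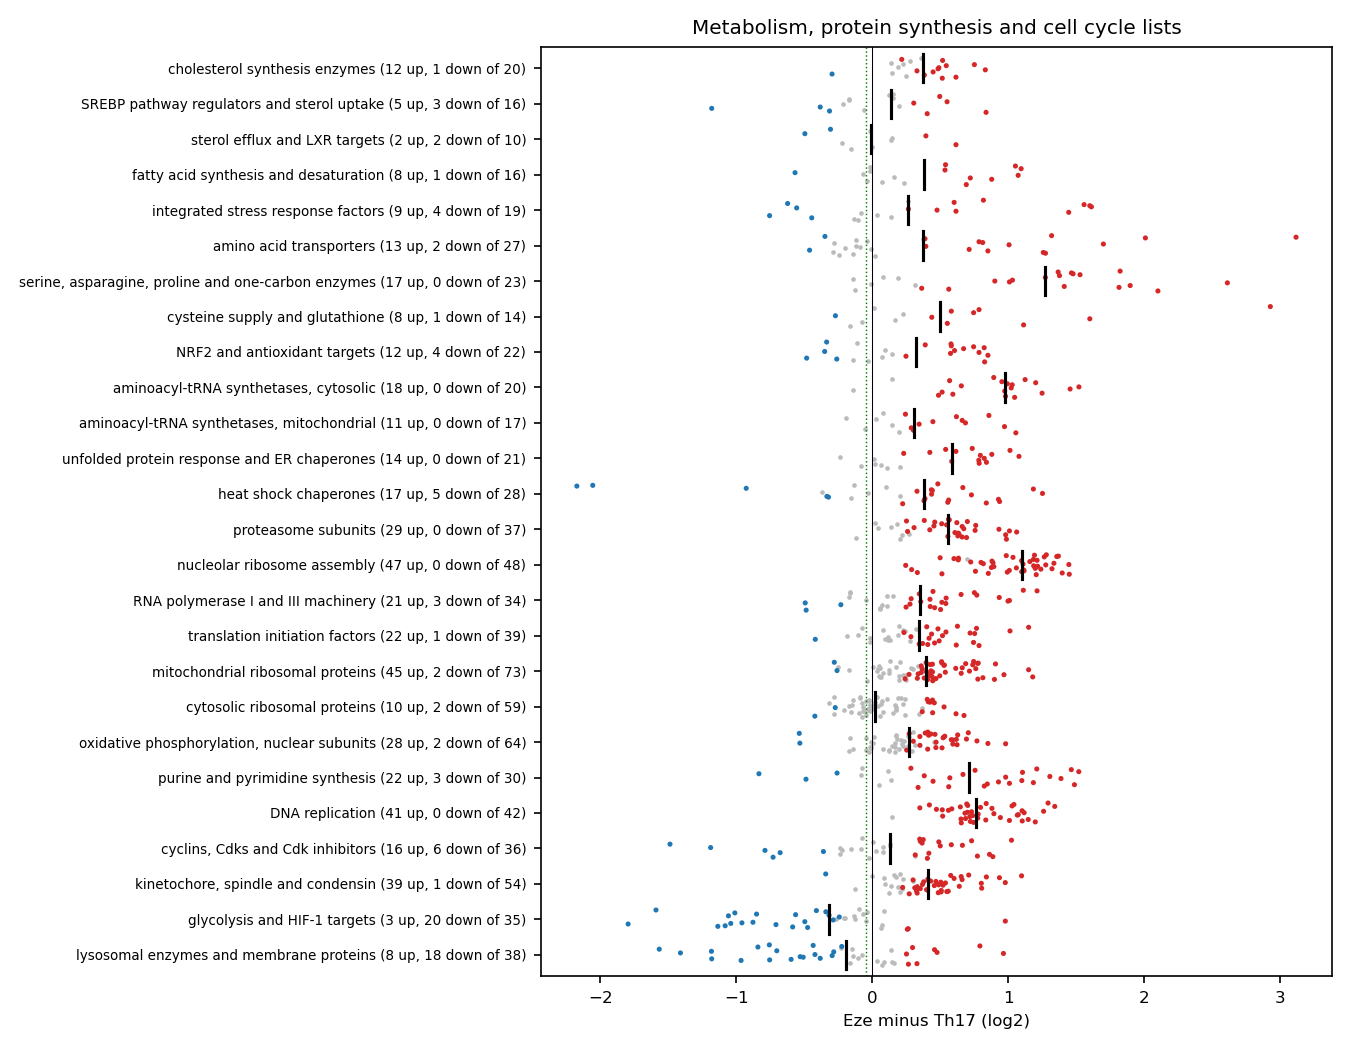
Difference between Eze and Th17 (x axis, log2) for every measured gene of the metabolic, protein synthesis and cell cycle lists, 1 point per gene, red where higher, blue where lower and grey where not called. The black bar is the median of the list and the green dotted line the median of all genes at -0.04, and the longest shift is that of the serine and one-carbon enzymes at 1.27.

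Genes of amino acid supply rose together. Of 23 enzymes that make serine, asparagine, proline and folate-bound carbon, 17 rose and 0 fell (median 1.27). Asns, which makes asparagine, was at 7.38, 7.37, 7.44 and 7.43 in Th17 and 9.28, 9.26, 9.28 and 9.38 in Eze. That difference of 1.90 (SE 0.07) was far outside the spread within either group. Phgdh opens serine synthesis and went from 6.11, 5.50, 5.97 and 5.65 to 7.31, 7.70, 7.70 and 7.80, and the later steps Psat1 and Psph were 1.37 and 1.47 higher. Shmt2, which moves the carbon of serine onto folate in mitochondria, went from 8.79, 8.90, 8.97 and 9.06 to 10.44, 10.36, 10.49 and 10.54. Its neighbours Aldh1l2 and Mthfd2 were 2.61 and 1.27 higher, and the cytosolic enzymes Shmt1 and Mthfd1 1.48 and 1.38 higher. For proline, Pycr1 and Aldh18a1 were 1.81 and 1.41 higher. Mthfd1l and Gldc did not pass, at 0.08 and -0.01. The median of this list was 1.20 between the unnumbered arrays and 1.23 between the numbered arrays.

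Amino acid transporters rose in 13 of 27 cases and fell in 2. Slc7a5, the light chain of the leucine transporter, went from 8.14, 8.01, 7.98 and 8.13 to 10.26, 9.98, 10.07 and 10.0, 2.01 higher (SE 0.08), and its heavy chain partner Slc3a2 was 0.81 higher. Slc1a4 and Slc1a5, which carry alanine, serine, cysteine and glutamine, were 1.70 and 1.01 higher, the arginine carrier Slc7a1 1.32, the glycine carrier Slc6a9 1.27 and the cystine exchanger Slc7a11 0.79 higher. Slc43a3, a relative of these carriers that transports purine bases, was 1.26 higher. The glutamine carrier Slc38a2 did not pass (-0.09), and Slc38a9, a lysosomal arginine sensor, fell by 0.46. Genes that supply cysteine and glutathione rose in 8 of 14 cases and fell in 1, with Mat2a at 1.11, Gclm at 0.75 and Gclc at 0.58. Targets of the oxidant factor NRF2 gave 12 of 22 higher and 4 lower, or 12 and 2 when arrays were centred. Taldo1, Sod2, Txnrd1 and Txn1 were 0.85, 0.83, 0.82 and 0.67 higher, while Nfe2l2, the gene of NRF2 itself, fell by 0.34 and the ferritin light chain gene Ftl1 by 0.48. The call of Nfe2l2 was lost when arrays were centred and without some single arrays.

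Factors of the integrated stress response, through which cells slow translation and raise ATF4, went both ways, 9 of 19 higher and 4 lower. Atf4 itself was at 8.40, 8.78, 8.50 and 8.58 in Th17 and at 9.30, 9.27, 9.49 and 9.47 in Eze, 0.82 higher with no overlap. Chac1, which degrades glutathione and is a standard ATF4 target, went from 5.17, 5.12, 4.85 and 5.18 to 6.73, 6.68, 6.65 and 6.67, and the pseudokinase gene Trib3 from 6.04, 5.78, 6.24 and 5.98 to 7.53, 7.64, 7.58 and 7.51. Both differences, 1.60 (SE 0.09) and 1.56 (SE 0.10), lay outside the spread between arrays, though both means of Chac1 were below background. Sesn2 and Nupr1 were 1.61 and 1.45 higher, Cebpg 0.62 and Ddit3, the gene of CHOP, 0.60 higher. Other members fell: Eif2ak3, which encodes the stress kinase PERK, by 0.76, Ddit4 by 0.62, the phosphatase subunit gene Ppp1r15a by 0.56 and Vldlr by 0.45. The call of Ddit4 was lost when arrays were centred and without some single arrays. Gdf15 and Fgf21, secreted products of the response, were not called (-0.10 and -0.13). By the same test Eze was above Rsv in 13 of these 19 genes and below it in 3, and above Th0 in 0 and below it in 6. The Eze level of Chac1 differed from its Th0 level by -0.03 (95% interval -0.23 to 0.17), that of Trib3 by 0.04 (-0.16 to 0.24) and that of Atf4 by -0.02 (-0.22 to 0.18). Asns and Slc7a3 were above Th0 as well, by 0.49 and 0.98.

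The promoters of 3 of these genes are shown because each holds a match, in capitals, to the letters at which ATF4 binds together with C/EBP factors. They run from 250 bases before to 50 after the RefSeq start of the gene, on the strand of the gene in GRCm38.p6, 5′ to 3′, at chr6:7693160-7693459 (minus strand) for Asns, chr2:119350992-119351291 (plus) for Chac1 and chr3:50443564-50443863 (minus) for Slc7a11.
Asns: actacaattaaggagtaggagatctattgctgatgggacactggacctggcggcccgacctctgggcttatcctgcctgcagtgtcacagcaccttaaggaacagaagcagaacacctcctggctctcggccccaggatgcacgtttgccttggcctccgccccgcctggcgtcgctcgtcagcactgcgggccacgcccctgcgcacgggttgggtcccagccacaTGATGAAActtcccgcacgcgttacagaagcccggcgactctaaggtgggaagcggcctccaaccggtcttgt
Chac1: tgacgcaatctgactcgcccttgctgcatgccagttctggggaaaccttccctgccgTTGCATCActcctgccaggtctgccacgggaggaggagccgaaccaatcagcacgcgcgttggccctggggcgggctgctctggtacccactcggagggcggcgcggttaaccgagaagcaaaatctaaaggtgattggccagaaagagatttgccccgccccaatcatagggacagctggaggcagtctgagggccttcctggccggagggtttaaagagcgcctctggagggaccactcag
Slc7a11: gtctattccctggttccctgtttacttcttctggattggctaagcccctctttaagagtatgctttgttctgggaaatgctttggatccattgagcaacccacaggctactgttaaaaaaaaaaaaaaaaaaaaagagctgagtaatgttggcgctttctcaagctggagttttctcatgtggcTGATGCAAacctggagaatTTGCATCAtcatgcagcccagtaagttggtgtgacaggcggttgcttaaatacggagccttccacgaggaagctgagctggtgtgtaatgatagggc
The search was for TGATGNAA on both strands, in the 18200 of 30920 genes that matched a RefSeq promoter. It was found in 5 of 18 promoters of the stress response factors (27.8%), in 4 of 12 of the cytosolic tRNA synthetases (33.3%), in 3 of 18 of the serine and one-carbon enzymes (16.7%) and in 3 of 21 of the transporters (14.3%), against 723 of all 18200 (3.97%). Among all genes higher in Eze the share was 3.08% and among all lower ones 3.58%. The Bcl2 family, which was searched in the same way, had 5 of 20 promoters with a match (25.0%), and Vldlr, which fell, also holds one. In Slc7a11 there are 2 matches, in opposite orientation. The lists were drawn up from textbook knowledge and hold genes known as ATF4 targets, so that a high share in them was partly built in. A match describes these letters and is no measure of binding.

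Enzymes that load tRNA with amino acids were higher almost throughout. Of 20 cytosolic synthetases 18 rose and 0 fell, with a median of 0.98. The leucine enzyme gene Lars went from 6.90, 6.97, 6.54 and 6.69 to 8.15, 8.36, 8.36 and 8.32, 1.52 higher (SE 0.10). Nars, Tars, Gars, Eprs and Yars were 1.46, 1.25, 1.20, 1.12 and 1.05 higher, and those for aspartate and glutamine, Dars and Qars, were not called (0.14 and -0.14). Mitochondrial synthetases rose in 11 of 17 cases and 0 fell, by a smaller median of 0.30, with Yars2 at 1.06 and Rars2 at 0.97. Only 3 of these 17 lay above background. In Eze 19 of the 20 cytosolic enzymes were higher than in Rsv, and 10 higher than in Th0. Wars, which interferon-γ induces, was the 1 that was lower than in Rsv, with a difference of -0.42.

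Chaperones of the endoplasmic reticulum and other genes of the unfolded protein response rose in 14 of 21 cases, and 0 fell, with a median of 0.58. Hspa5, the gene of the chaperone BiP, went from 7.49, 7.54, 7.43 and 7.53 to 8.18, 8.15, 8.25 and 8.35, 0.74 higher (SE 0.08). Sdf2l1 went from 6.16, 6.48, 6.75 and 6.72 to 7.19, 7.72, 7.80 and 7.72, its unnumbered Eze array below the other 3 Eze arrays yet above every Th17 array. Hyou1 was 1.01 higher, the disulphide isomerase gene Pdia4 0.88, and Herpud1, Dnajb11 and Pdia6 0.84, 0.82 and 0.79 higher. None of the 3 sensors of this response was called higher: Atf6 and Ern1 did not pass (0.21 and 0.11) and Eif2ak3 fell, as given above. Xbp1 did not pass either (0.07), where the array does not separate its spliced from its unspliced form. Compared with Th0, 0 of the 21 genes were higher in Eze and 5 lower (0 and 1 when centred), where Hspa5 differed by -0.41. Compared with Rsv, 4 were higher and 1 lower (7 and 1 when centred). The promoter of Hspa5 is shown because it holds a match to the endoplasmic reticulum stress element, CCAAT and CCACG with 9 bases between them, in capitals, at chr2:34771840-34772139 on the plus strand of GRCm38.p6 (RefSeq).
Hspa5: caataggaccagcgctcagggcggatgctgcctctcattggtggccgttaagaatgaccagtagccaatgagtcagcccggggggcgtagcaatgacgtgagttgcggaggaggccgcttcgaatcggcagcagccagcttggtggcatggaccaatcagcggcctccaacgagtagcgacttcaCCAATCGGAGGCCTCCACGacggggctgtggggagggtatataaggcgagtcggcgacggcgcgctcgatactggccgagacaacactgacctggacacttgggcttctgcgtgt
On either strand this element was in 8 of 18 promoters of the list (44.4%) and in 31 of all 18200 (0.17%), and the list was drawn up from genes known to respond in this way.

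Genes that build ribosomes, and the nucleotides and proteins that go with growth, were also higher. Of 48 nucleolar assembly factors 47 rose, with a median of 1.10, and Mrto4, which works in assembly of the ribosomal stalk, went from 6.19, 6.11, 6.21 and 6.12 to 7.50, 7.68, 7.77 and 7.47. Utp20, Ltv1 and Dkc1 were 1.45, 1.40 and 1.36 higher. In Eze 37 of the 48 were above Rsv and 37 above Th0. Of 34 genes of RNA polymerase I and III 21 rose and 3 fell. Polr1b and Polr1a, which encode the core of polymerase I, were 1.21 and 1.11 higher and its initiation factor Rrn3 0.93 higher, while Maf1, which represses polymerase III, fell by 0.49. Initiation factors of translation rose in 22 of 39 cases, with Eif2b3 at 1.01 and Eif2s1 at 0.77. The 1 that fell was Eif4a1, by 0.42 on its brighter feature, while its other feature was 0.45 higher and the mean of both 0.01. The deposited annotation marks the brighter feature as able to bind other targets and the other feature as specific to 1 target. Cytosolic ribosomal proteins gave 10 of 59 higher and 2 lower (median 0.02), or 12 higher and 0 lower (median 0.09) when arrays were centred, so that their count depended on the scaling.

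In the nucleotide pathways 22 of 30 genes rose and 3 fell, with a median of 0.71. Gart, which carries 3 steps of purine synthesis, went from 6.71, 6.77, 6.83 and 6.82 to 8.25, 8.12, 8.31 and 8.30, 1.46 higher (SE 0.08). Adsl and Ppat of the purine branch were 1.52 and 1.21 higher, and Cad and Ctps of the pyrimidine branch 1.31 and 1.39 higher. Dctd, Rrm2 and Tyms, which feed DNA synthesis, were 1.49, 1.19 and 1.01 higher. Adssl1 and Ctps2 fell by 0.83 and 0.49. The E-box CACGTG, which Myc and its relatives bind, was in 6 of 28 promoters of this list (21.4%) and in 7 of 40 of the nucleolar list (17.5%), against 8.98% of all promoters, 13.9% of those of genes higher in Eze and 9.75% of those of genes lower. Among the lysosomal genes described below, of which more fell than rose, it was in 11 of 29 (37.9%).

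Mitochondrial ribosomal proteins rose in 45 of 73 cases and fell in 2 (median 0.40), 49 and 0 when arrays were centred, though 28 of them lay above background. Mrps18b went from 6.51, 6.30, 6.51 and 6.31 to 7.65, 7.63, 7.59 and 7.49, and Mrpl42 and Mrps10 were 1.15 and 0.97 higher. Nuclear subunits of the respiratory chain and ATP synthase followed with 28 of 64 higher and 2 lower (median 0.27), with Cyc1 at 0.98 and Uqcrq at 0.85. Proteasome subunits rose in 29 of 37 cases and none fell. Psmd1, a subunit of the regulatory particle, went from 7.50, 7.53, 7.30 and 7.22 to 8.48, 8.38, 8.47 and 8.46, and Psmc5 and Psmd7 were 1.01 and 0.98 higher. The 3 subunits of the immunoproteasome were at 0.31 (Psmb9, called), 0.14 (Psmb8) and 0.04 (Psmb10, neither called), whereas the constitutive Psmb5 was 0.76 higher.

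Chaperones of the cytosol and mitochondria were split. In all 17 of 28 rose, among them Hspd1 (1.25) and Hspa9 (1.19) of mitochondria and the TRiC subunits Cct6a (0.94) and Cct3 (0.93). A smaller set of 5 fell (3 when centred), led by the inducible Hsp70 genes. Hspa1a went from 7.78, 7.80, 7.72 and 7.70 to 5.49, 5.63, 5.64 and 6.02, and Hspa1b fell by 2.17. Both are nearly identical in sequence, so their probes may share signal. In Th0 and Rsv the mean of Hspa1a was 7.78 and 4.57, on either side of its Eze mean of 5.70.

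DNA replication genes rose in 41 of 42 cases with a median of 0.76. The helicase subunit gene Mcm2 went from 7.50, 7.50, 7.46 and 7.30 to 8.72, 8.69, 8.83 and 8.69. Orc2, Tipin and Fen1, of origin recognition, fork protection and flap removal, were 1.26, 1.20 and 1.15 higher. Against Rsv 13 genes were higher in Eze and none lower (27 and 0 when centred), and 40 of 42 were higher than in Th0. Kinetochore, spindle and condensin genes rose in 39 of 54 cases and Cenpa fell by 0.34, and against Rsv 7 were higher and 12 lower (11 and 4 when centred). Cenpk, Zwilch and Cenpq led, at 1.10, 0.98 and 0.94. Cyclins, their kinases and inhibitors were less uniform, 16 of 36 higher and 6 lower. Ccne1, the cyclin of entry into S phase, was 1.02 higher and the phosphatase gene Cdc25a 0.89 higher. Among the genes that fell were brakes on the cycle. Cdkn1b, which encodes the inhibitor p27, went from 8.50, 8.41, 8.35 and 8.49 to 7.26, 7.16, 7.43 and 7.14, and Ccng2, a cyclin of arrested cells, from 8.50, 8.46, 8.30 and 8.33 to 6.89, 6.87, 6.91 and 6.97. Both fell without overlap, by 1.19 and 1.49, and Cdkn2d and the pocket protein gene Rbl2 fell by 0.79 and 0.68. Cdkn1a, which encodes p21, was not called (0.08).

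Myc is a factor tied to the growth of activated T cells. Its level went from 9.58, 9.68, 9.68 and 9.71 to 9.87, 9.85, 9.98 and 9.97, 0.25 higher (adjusted p = 0.0115). Its antagonists Mxd1 and Mxd4, which compete for the same partner, fell by 1.65 and 1.45. Mxd1 went from 9.76, 9.59, 9.59 and 9.67 to 8.01, 7.91, 8.05 and 8.01, a wider gap than that of Myc. In the network of 13 genes 2 were higher and 5 lower, or 2 and 3 when arrays were centred. Of 26 p53 targets 9 rose and 8 fell, with Gadd45b at 1.35, Btg2 at -1.16 and Trp53inp1 at -1.07. The Bcl2 family had 3 of 23 higher and 5 lower, or 5 and 3 when arrays were centred. Its largest change was in Bcl2l11, which encodes the death inducer BIM. That gene went from 7.36, 7.48, 7.24 and 7.25 to 5.47, 5.33, 5.42 and 5.46, a fall of 1.91 (SE 0.08). The survival gene Mcl1 fell by 0.78, Bcl2l1 (BCL-XL) and Bid were 0.55 and 0.57 higher, and Bcl2 did not pass (0.27).

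By count, more cytokine genes of Th17 cells rose than fell and more receptor genes fell than rose, but the IL-17 genes did not rise. Among 11 cytokines and chemokines that Th17 cells make, 8 were higher, with Il9 counted among them, and 2 lower. Csf2, the gene of GM-CSF, went from 5.07, 5.09, 4.62 and 5.09 to 6.52, 6.05, 6.09 and 6.27, 1.26 higher with the numbered array 2 lowest in Th17 and all levels below background. Tnf went from 8.46, 8.50, 8.61 and 8.53 to 9.84, 9.66, 9.65 and 9.60, and Il22, Il24 and Lif were 0.53, 0.52 and 0.46 higher. Il21 and Ccl20 were 0.36 and 0.34 higher. The calls of Il22 and Ccl20 were lost without some single arrays. The IL-17 genes were lower or not called. Il17f went from 10.37, 10.38, 10.30 and 10.31 to 9.42, 9.26, 9.41 and 9.27, a fall of 1.0. Il17a was at 6.94, 7.0, 6.74 and 6.87 in Th17 and 6.59, 6.47, 6.51 and 6.43 in Eze, without overlap, but its difference of -0.39 (95% interval -0.71 to -0.07) missed the threshold at an adjusted p of 0.0794 (exact two-sided Mann-Whitney p = 0.0286, the smallest that 4 against 4 arrays allow). Il10 fell by 0.63. Both IL-17 genes stayed above their Th0 level, with Eze 5.08 higher for Il17f and 2.61 for Il17a.

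**Figure D4:**
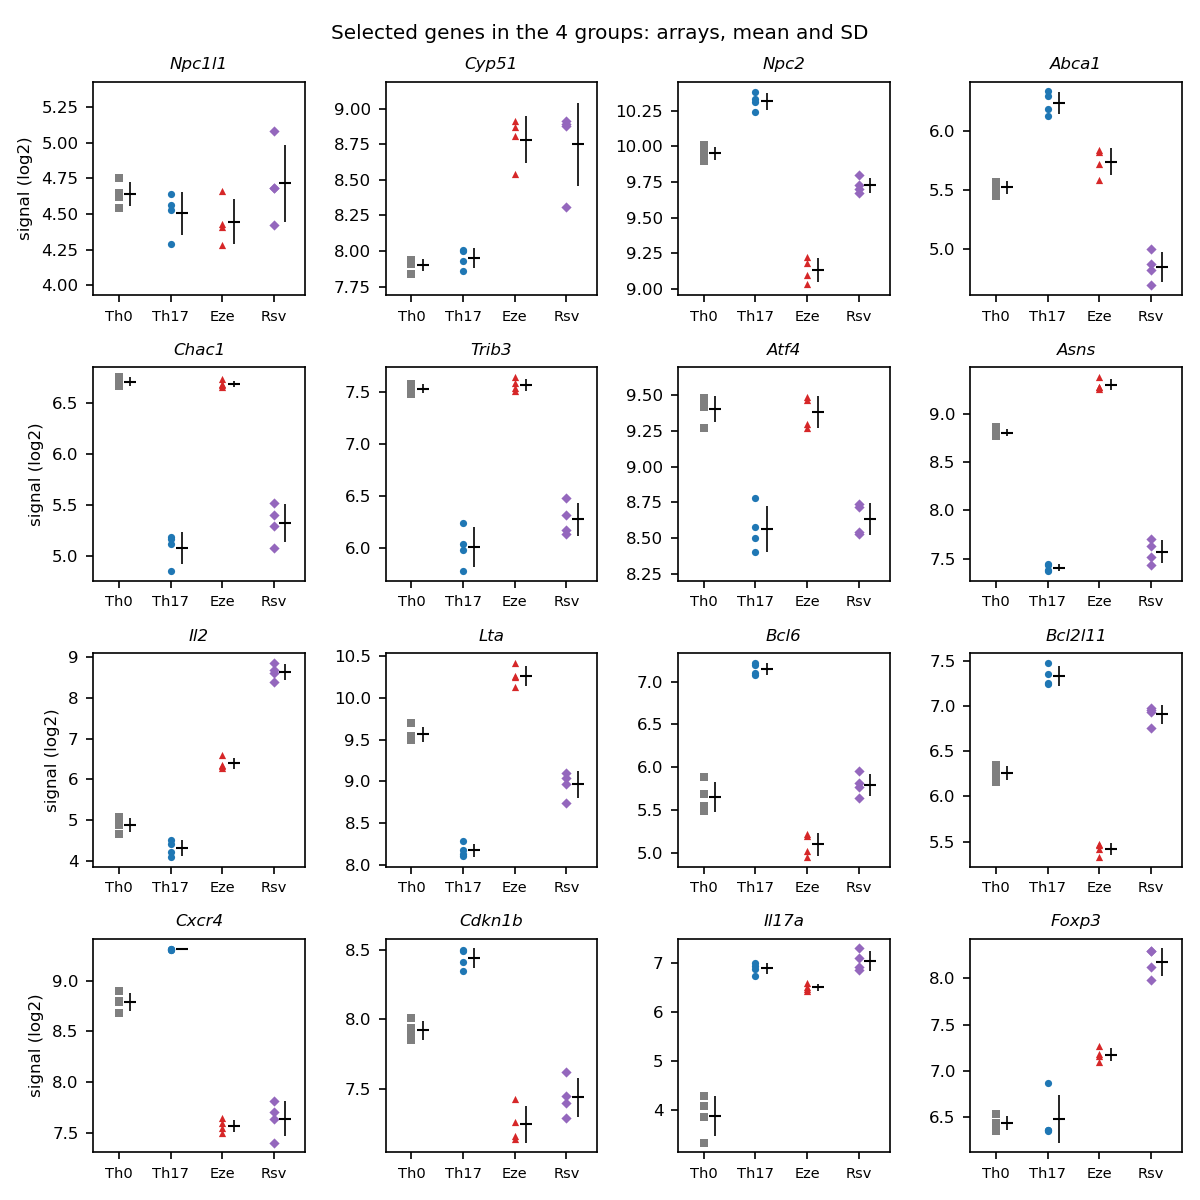
Signal (y axes, log2, each gene on its own scale) of 16 genes in the 4 groups, 1 point per array, with the mean and SD beside the points (n = 4 per group). Chac1, Trib3 and Atf4 stand level in Eze and Th0 and lower in Th17 and Rsv, Il2 is highest in Rsv at a mean of 8.64, and Npc1l1 is low in all groups.

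Receptors for the cytokines that shape these cells fell in 9 of 14 cases and rose in 2. The IL-23 receptor gene Il23r went from 7.77, 7.78, 7.68 and 7.82 to 4.79, 4.56, 4.92 and 5.06, and Il1r1 from 7.14, 7.17, 6.65 and 6.83 to 4.51, 4.81, 4.36 and 4.76. Both means went from above the background value to below it, so that the falls were at least 1.98-fold and 1.13-fold. Ifngr1 and Il6ra fell by 1.56 and 0.96, Il6st by 0.65 and Tgfbr2 by 0.53, while Tgfbr1 and Il12rb1 were 0.51 and 0.32 higher. Of 12 transcription factors of the lineage 8 fell and 0 rose (median -0.64). The AP-1 factor gene Fosl2 went from 9.24, 9.29, 9.36 and 9.39 to 7.82, 7.77, 7.76 and 7.81, a fall of 1.53 (SE 0.08). Ahr, Maf, Rora and Stat3 fell by 1.09, 0.84, 0.76 and 0.66, while Batf and Irf4, which act early, were not called (-0.02 and 0.04). Set against Th0, 8 of the 14 receptor genes were higher in Eze and 3 lower (9 and 1 when centred), with Il23r 1.73 and Il1r1 1.09 higher, both below background in both of these groups. Of the 12 factors 5 were higher than in Th0 and 4 lower, and Fosl2 differed by -0.76.

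Genes of the other helper lineages did not move as blocks. Of 17 regulatory T cell genes 5 rose and 7 fell. Foxp3, their defining factor, was at 6.36, 6.35, 6.36 and 6.87 in Th17, with array 3 above the rest, and at 7.16, 7.18, 7.27 and 7.10 in Eze, 0.69 higher with no overlap. Gpr83, a receptor of these cells, went from 6.09, 5.92, 6.10 and 6.09 to 7.90, 7.80, 7.78 and 7.84, 1.78 higher. In contrast Nt5e, the gene of the ectonucleotidase CD73, went from 8.87, 8.92, 8.91 and 8.89 to 7.56, 7.49, 7.56 and 7.66, and Lrrc32, Tigit and Ctla4 fell by 1.26, 1.22 and 0.63. Il2ra and Ikzf2, further defining members, were not called (0.14 and 0.19). Th1 genes fell in 9 of 17 cases and rose in 3, or 6 and 3 when arrays were centred. Ifng was higher, from 3.30, 3.36, 3.20 and 3.67 to 3.97, 4.09, 4.43 and 4.18, a difference of 0.78 that lay wholly below background. Il12rb2 and Stat4 fell by 1.81 and 1.42, and Gzmb went from 8.76, 8.89, 8.96 and 8.96 to 7.43, 7.60, 7.74 and 7.58. The mean level of natural killer markers, with which Gzmb is shared, was lower in Eze as given above, and its part in these values was not tested. Tbx21, the Th1 factor, did not pass (0.34). Against Rsv 12 of 17 were lower, with a difference of -2.93 for Ifng. Th2 genes had 3 of 12 higher and 4 lower, with Il4 and Il13 0.63 and 0.63 higher and Gata3 and Nfil3 lower by 0.45 and 0.88. Their median was 0.13 in the unnumbered and -0.14 in the numbered arrays. Follicular helper genes gave 2 of 14 higher and 5 lower (2 and 3 when centred), and Bcl6, their defining repressor, went from 7.22, 7.19, 7.08 and 7.10 to 5.02, 5.22, 4.95 and 5.20, a fall of 2.05 (SE 0.10). Icos fell by 0.68, and Cxcr5 and Btla were not called (-0.23 and -0.11).

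**Figure D5:**
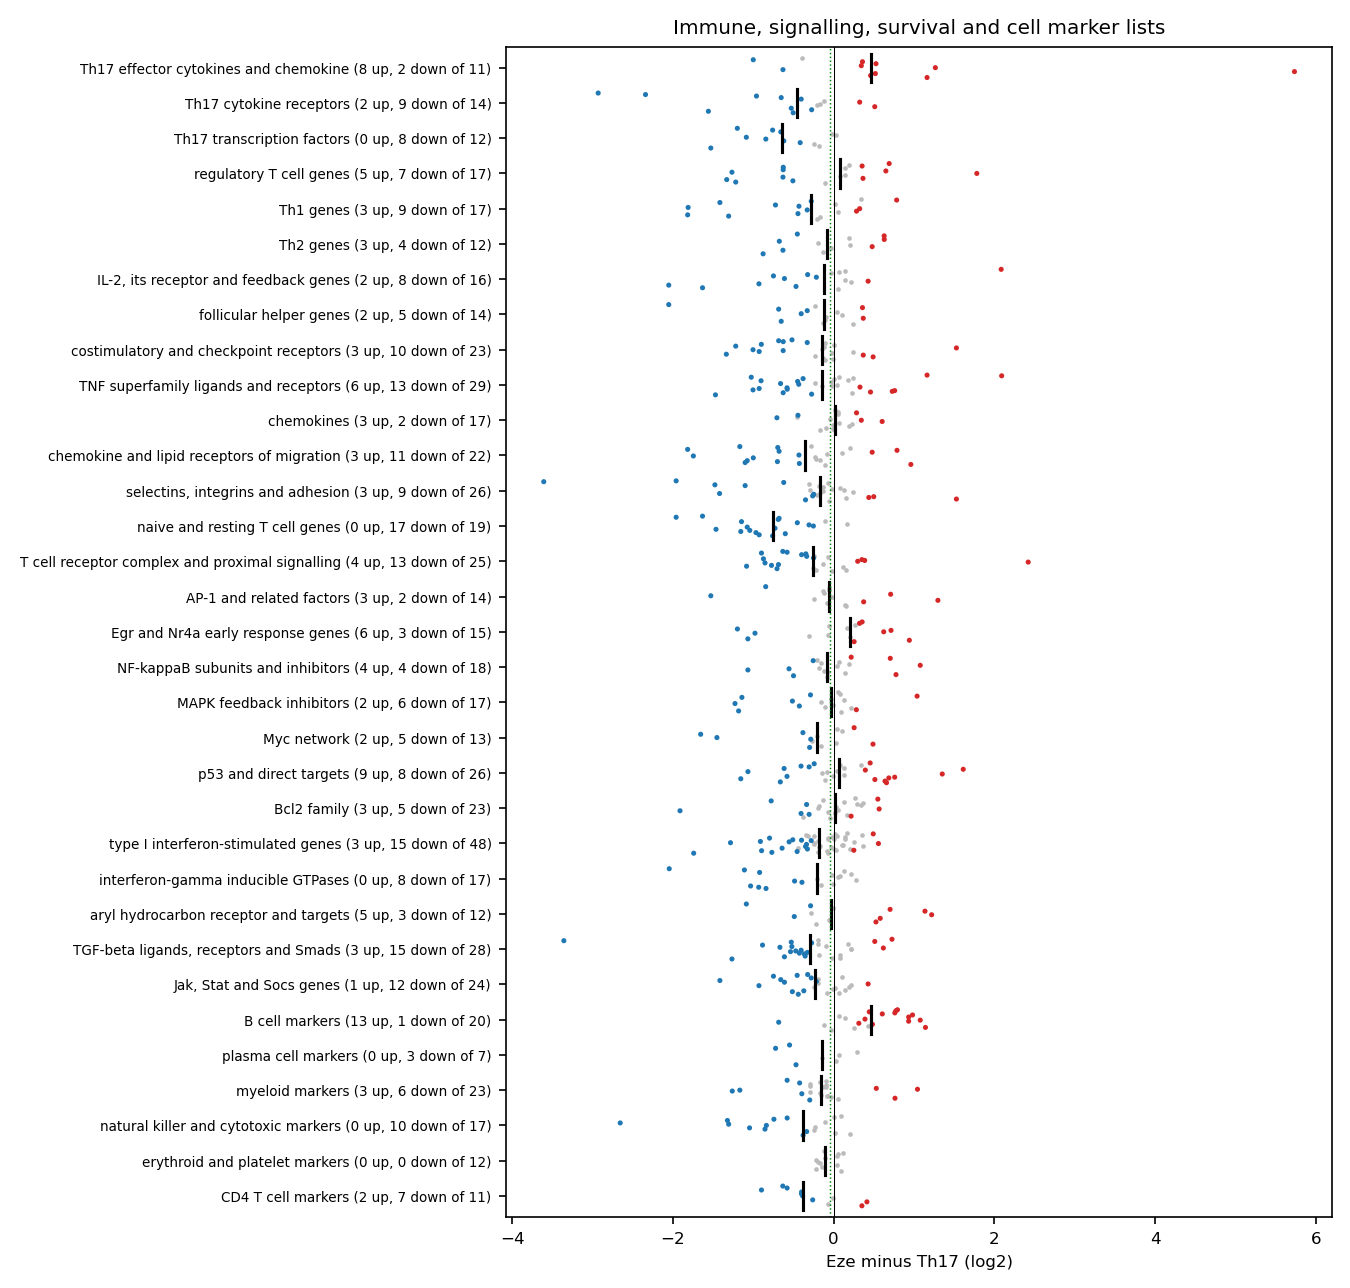
Difference between Eze and Th17 (x axis, log2) for every measured gene of the immune, signalling, survival and marker lists, 1 point per gene, red where higher, blue where lower and grey where not called, with the list median as a black bar and the median of all genes (-0.04) as a green dotted line. Naive and resting T cell genes lie farthest to the left at a median of -0.76, and single genes such as Il9 and Selp lie far from their lists.

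IL-2, the growth factor that activated T cells make for themselves, was among the larger increases. Il2 was at 4.51, 4.09, 4.21 and 4.41 in Th17 and at 6.36, 6.27, 6.60 and 6.34 in Eze, below background on every array of both groups but without overlap. The difference was 2.08 (SE 0.12), and in Rsv the mean was 8.64, which is above background. Of the 16 genes of IL-2, its receptor and its signalling 2 were higher and 8 lower, or 3 and 6 when arrays were centred. The receptor chains Il2ra, Il2rb and Il2rg were not called (0.14, 0.06 and -0.03), and Socs1 was 0.43 higher. Il7r, the IL-7 receptor, went from 10.15, 9.84, 9.73 and 9.73 to 8.26, 8.26, 8.23 and 8.17, and Socs3, Jak3 and Stat5b fell by 0.93, 0.75 and 0.61. Over all 24 genes of Jaks, Stats and their inhibitors, 1 was higher and 12 were lower, or 3 and 9 when arrays were centred. TGF-β ligands, receptors and Smads fell in 15 of 28 cases and rose in 3, or 11 and 5 when arrays were centred, with Tgfb1 0.73 higher beside the fall of Tgfb3, and Acvr2a, Bmpr2 and Tgif1 lower by 0.88, 0.67 and 0.61. Smad2 was not called (0.22), and Smad3 and Smad7 fell by 0.40 and 0.43.

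Surface molecules of the TNF superfamily fell in 13 of 29 cases and rose in 6, or 10 and 7 when arrays were centred. The median of this list was 0.08 in the unnumbered and -0.13 in the numbered arrays. Ligand genes stood at both ends. Lta, the gene of lymphotoxin α, went from 8.28, 8.18, 8.13 and 8.10 to 10.42, 10.13, 10.26 and 10.25, 2.09 higher (SE 0.09), and Tnf, its neighbour on the chromosome, was 1.16 higher. Tnfsf4, the OX40 ligand, and Tnfsf9, the 4-1BB ligand, fell by 1.02 and 0.90. Of the receptors, Tnfrsf26, Tnfrsf9 (4-1BB) and Cd27 fell by 1.47, 1.0 and 0.93. The death receptor genes parted, Tnfrsf10b being 0.76 higher while Fas fell by 0.58. Costimulatory and checkpoint receptors fell in 10 of 23 cases. Vsir (VISTA), Tigit and Lag3, which restrain T cells, fell by 1.33, 1.22 and 0.90, and the costimulators Cd28 and Icos by 0.52 and 0.68. The largest increase in this list was that of Cd226, a costimulator that competes with TIGIT for the same ligands, at 1.53. Pdcd1 (PD-1) fell by 0.33, and Havcr2 (TIM-3) and Tnfrsf4 (OX40) were not called (0.01 and -0.14).

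Receptors that steer migration fell in 11 of 22 cases and rose in 3. Cxcr4, the receptor for the bone marrow chemokine CXCL12, went from 9.32, 9.32, 9.31 and 9.31 to 7.64, 7.50, 7.55 and 7.59, a fall of 1.75 (SE 0.09). Ccr2, Gpr183 and S1pr1, which guides exit from lymph nodes, fell by 1.17, 1.10 and 1.07, and Cxcr6 by 1.0. The Th17 receptor Ccr6 and the prostaglandin receptor Ptger4 were 0.79 and 0.96 higher. Adhesion molecules fell in 9 of 26 cases and rose in 3, or 6 and 4 when arrays were centred. Beside Selp, the integrin chains Itga3, Itgb3 and Itga4 fell by 1.48, 1.42 and 1.10. The β2 integrin chains Itgal and Itgb2 were not called (-0.02 and -0.16), and Icam1 was 0.44 higher. Of 17 chemokine genes 3 rose and 2 fell, Ccl22 at 0.60 and Ccl9 at -0.71. Compared with Rsv, 14 of these 17 were lower in Eze, with differences of -3.65 for Xcl1 and -2.76 for Ccl3.

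Among genes that mark naive or resting T cells, 17 of 19 fell and none rose (median -0.76). Beside Il7r these were Pik3ip1 (-1.46), the antiproliferative genes Btg2 and Btg1 (-1.16 and -1.04) and Klf2 (-1.15), which drives S1pr1. Tcf7 fell by 0.69, and Lef1 and Klf6 were not called (-0.11 and 0.17). Against Th0 the list had 6 genes higher and 6 lower. The T cell receptor complex and its signalling proteins fell in 13 of 25 cases and rose in 4, or 10 and 4 when arrays were centred. Trat1 was at 5.38, 5.65, 5.27 and 5.47 in Th17 and 7.76, 7.77, 7.96 and 7.96 in Eze, opposite to Ptpn22, Cd3g, Zap70 and Plcg1, which fell by 1.08, 0.90, 0.87 and 0.85. Lck was not called (-0.07). In Th0 the mean of Trat1 was higher still, 8.83.

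Early response genes downstream of this receptor were mixed. Of 15 Egr, Nr4a and related genes 6 rose and 3 fell, with Cd69, a marker of recent activation, at 0.94, Nr4a3 at 0.71 and Nr4a2 at -1.20. Tnfaip3 and Ier3 fell by 1.07 and 0.98. AP-1 factors gave 3 of 14 higher and 2 lower, and their median of -0.06 became 0.01 when arrays were centred. Batf3 and Fosl1 were 1.30 and 0.71 higher, Jun fell by 0.85 and Fos was not called (-0.14). NF-κB genes split evenly with 4 higher and 4 lower of 18, Nfkbid at 1.08 and Bcl3 at -0.56. Of 17 inhibitors of the MAP kinases 2 were higher and 6 lower. Dusp5, which acts on ERK, was 1.04 higher, while Dusp16, Spred2 and Dusp6 fell by 1.23, 1.18 and 1.14.

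Targets of the hypoxia factor HIF-1 and glycolysis genes fell in 20 of 35 cases and rose in 3, with a median of -0.32. Ndrg1 went from 9.62, 9.57, 9.57 and 9.54 to 7.78, 7.72, 7.82 and 7.80, and the glucose transporter gene Slc2a3 from 10.17, 10.01, 10.01 and 9.92 to 8.50, 8.45, 8.42 and 8.38. P4ha1, Ankrd37, Aldoc and the mitophagy receptor gene Bnip3l fell by 1.14, 1.08, 1.06 and 1.04. Of the main enzymes of glycolysis, Ldha, Pfkl and Hk2 were not called (-0.05, -0.04 and 0.08), and the lactate and pyruvate carrier Slc16a1 was 0.98 higher. Against Rsv the order was the opposite, with 30 of 35 higher in Eze and 0 lower, with differences of 1.96 for Slc2a3 and 0.93 for Ndrg1. Lysosomal genes fell in 18 of 38 cases and rose in 8. Gla, the α-galactosidase gene, went from 8.95, 8.70, 8.73 and 8.81 to 7.50, 7.25, 7.42 and 7.36, and Ctsw, a cathepsin of cytotoxic cells, fell by 1.57. Cd63, Tpp1 and Ctsf fell by 1.18, 0.96 and 0.84, Gusb and Ctsc were 0.96 and 0.79 higher, and Tfeb, the master regulator of these genes, was not called (0.04).

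The aryl hydrocarbon receptor and its targets parted. Ahr went from 9.26, 9.18, 9.05 and 9.19 to 8.16, 7.99, 8.02 and 8.17, a fall of 1.09 (SE 0.08), whereas its target genes Cyp1b1 and Cyp1a1, which metabolise its ligands, were 1.22 and 1.14 higher and its repressor Ahrr 0.70 higher. For Cyp1b1 the levels were 4.32, 3.87, 4.40 and 4.14 in Th17 and 5.12, 5.57, 5.33 and 5.59 in Eze, all below background yet without overlap. Tiparp, another target, fell by 0.49. In all 5 of 12 rose and 3 fell, with a median of 0.26 in the unnumbered and -0.15 in the numbered arrays. Only 3 of these 12 genes had a mean above background in Eze or in Th17.

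Interferon-stimulated genes fell more often than they rose. Of 48 genes of the type I interferon response 15 were lower and 3 higher, or 11 and 3 when arrays were centred. Samhd1, which limits the nucleotide pool, went from 11.42, 11.35, 11.30 and 11.31 to 9.55, 9.62, 9.63 and 9.63, a fall of 1.74 (SE 0.07). The RNA sensor gene Dhx58 and the inhibitor gene Usp18 fell by 1.28 and 0.91, Slfn1 and Oas3 by 0.90 and 0.80, while Isg15 and Ifit1 were not called (0.35 and 0.16). GTPases induced by interferon-γ had 0 of 17 higher and 8 lower. Gbp2 went from 10.51, 10.50, 10.45 and 10.46 to 8.38, 8.30, 8.48 and 8.57, and Gbp3, Tgtp1 and Gbp5 fell by 1.11, 1.03 and 0.92. These GTPases, like the Oas genes, are close relatives whose probes may share signal. Against Rsv 17 of the 17 were lower in Eze, and of the 48 type I genes 32 were lower.

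MicroRNA features on this array read hairpins and their host transcripts, not mature microRNAs. Of 559 such genes 16 were higher and 50 lower, shares below the background of all genes. The ones described here were chosen after their values were seen. The mature sequences that these hairpins would yield, from RefSeq, are shown to give the seed by which each finds its targets, bases 2 to 8, in capitals, and miR-17-5p and miR-20a-5p share one.
miR-29a-3p: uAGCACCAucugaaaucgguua
miR-17-5p: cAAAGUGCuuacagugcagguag
miR-20a-5p: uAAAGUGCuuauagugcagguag
miR-18a-5p: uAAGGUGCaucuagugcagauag
miR-19a-3p: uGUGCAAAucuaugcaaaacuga
miR-155-5p: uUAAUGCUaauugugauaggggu
Mir29a (hairpin at chr6, minus strand) was at 3.17, 3.45, 2.98 and 3.70 in Th17 and at 4.75, 5.28, 5.15 and 5.01 in Eze, 1.72 higher (SE 0.25) and without overlap, though below background. Its neighbour Mir29b-1 was not called (0.32). The oncogenic cluster on chr14, of which the host gene is Mir17hg, was measured through 5 genes. Mir17hg went from 5.35, 5.27, 5.30 and 5.25 to 6.30, 6.02, 5.80 and 6.06, Mir18 from 4.93, 4.66, 5.04 and 4.78 to 6.17, 6.10, 6.01 and 6.21 and Mir19a from 3.03, 2.89, 2.53 and 2.81 to 4.27, 3.93, 4.07 and 4.07. All of these levels lay below background, and Mir17 and Mir20a were 0.50 and 0.57 higher. These hairpins lie in 1 primary transcript and are not independent, and the deposited annotation marks the features of Mir17, Mir18, Mir19a and Mir20a as able to bind other targets. Mir155, which acts in T cell activation, went from 7.54, 7.60, 7.31 and 7.43 to 8.03, 8.03, 8.08 and 8.17, 0.61 higher, and of the hairpins that fell, Mir361 and Mir342 were at -1.27 and -0.94.

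Genes that differed between Eze and Th17 took various places beside the other groups. Il9 was 2.39 higher in Eze than in Rsv and 6.52 higher than in Th0. Anxa3 was 4.14 and 2.58 higher, and Gpr83 1.99 and 2.40 higher. For Cth the difference was 2.97 from Rsv and 0.35 from Th0, and for Gpt2 1.84 and 0.59. Bcl2l11 was -1.49 against Rsv and -0.84 against Th0, Ecm1 -1.69 and -1.97, and Itgb3 -1.37 and -1.92. In other genes, chosen after their values were seen, the difference from a second group did not pass the test. Txk differed from Th0 by -0.02 (95% interval -0.18 to 0.14), Klf2 by -0.02 (-0.32 to 0.28) and Tpp1 by -0.05 (-0.20 to 0.11), with Th17 above both. Tgfb3 differed from Rsv by -0.21 (adjusted p = 0.0579) and Cxcr4 by -0.07 (adjusted p = 0.577). Il2 and Foxp3 were higher in Rsv than in Eze, with differences of -2.25 and -0.99, and Gja1 and Itga7 were lower in Rsv, with differences of 0.64 and 0.92. All of these comparisons share the Eze arrays, so values that select a gene in one also enter the others.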

How the data were processed

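Total RNA was measured on 16 MoGene 2.0 ST gene arrays, 1 per GEO sample. The methods head this part as RNA sequencing, but the deposited files and the labelling protocol are those of arrays. The authors deposited log2 values, which the methods describe as preprocessed by a "range migration algorithm" (taken here as RMA) and quantile normalized; software versions and the build of the annotation are not given in the sources used here. Both deposited tables hold the same values (661520 of 661520 exactly equal), so the alternative of using the other table changes nothing. Columns with the authors' own comparisons were not used.

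Of 33793 main features, 31872 carried 1 symbol, and the brightest feature of each of 30920 genes was kept (657 genes had several). A linear model with 1 mean per group over 16 arrays was fitted with limma 3.58.1 in R 4.3.3 (residual df 12, prior df 5.47), without a replicate block, and p-values were Benjamini-Hochberg adjusted over all genes. The number of arrays limits the precision, and the median SE was 0.11. The methods' test, the Mann-Whitney U test, was an alternative. Genes were named as the 15 largest increases and decreases among called genes without overlap and with a mean of at least 6 in the higher group, and for each list up to 6 called members of largest change and defining members. Genes beyond that rule were chosen after their values were seen. Lists share genes, and a few of their members are counted but not reported singly here. Members, lists and tests were chosen with earlier results of these data known. Of 1429 list entries 1414 were measured. Promoter and microRNA sequences come from RefSeq (GRCm38.p6), with 18200 genes matched to a promoter.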

Additional observations from a re-analysis of the deposited data

Results flagged for a closer look

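In 172 sets of 4 arrays, those of Eze and Th17 for the genes examined array by array, the highest or lowest array was set against the rest, and 5 sets had 1 array farther off than Dixon's 95% critical value for the gap divided by the range. Chance flags about 1 in 20. In Eze, the unnumbered array was lowest for Sdf2l1, at 7.19 against 7.72 for the next (gap over range 0.871), and for Samhd1, at 9.55 against 9.62 (0.856). In Th17, the numbered array 2 was lowest for Csf2, at 4.62 against 5.07 (0.941), the numbered array 3 was highest for Foxp3, at 6.87 against 6.36 (0.973), and the numbered array 1 was lowest for Gpr83, at 5.92 against 6.09 (0.978). The call of each of these 5 genes between Eze and Th17 was kept without any 1 array.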

How the results depend on the processing

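The exact Mann-Whitney test, whose smallest p with 4 against 4 arrays is 0.0286, gave 0 calls after adjustment in either direction and in every list, while 9384 genes had an unadjusted limma p under 0.05. Restriction to genes above background left 2156 higher and 1827 lower between Eze and Th17, 2459 and 977 between Eze and Rsv, and 2347 and 1406 between Eze and Th0, by construction with fewer genes tested. Genes passed by their mean in Eze or in Th17, so those high only in Rsv or only in Th0 were left out. The restricted counts against Rsv and Th0 are therefore tilted by construction towards genes higher in Eze. Counts in either direction under that restriction were 4 for B cell markers, 5 for the Bcl2 family, 5 for MAP kinase inhibitors, 10 for NRF2 targets, 14 for polymerase I and III, 11 for the TGF-β genes, 2 for mitochondrial synthetases, 3 for aryl hydrocarbon receptor genes, 3 for chemokines, 8 for stress response factors, 3 for interferon-γ GTPases, 25 for mitochondrial ribosomal proteins, 2 for myeloid, 6 for natural killer and 0 for plasma cell markers, and 10 for p53 targets. With arrays centred, 6796 genes were higher and 2010 lower between Eze and Rsv, and 1807 lower between Eze and Th0, and the cause was not tested. With only the numbered arrays 2 chemokines were called.

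Same-numbered Eze and Th17 arrays did not deviate together over all genes (correlations of deviations 0.03, -0.003, -0.02 and 0.01). Most of these genes lay below background, so this cannot tell whether such arrays share a mouse or culture. A replicate block gave 3430 genes higher and 3224 lower between Eze and Th17. The unnumbered arrays as a block gave 3552 and 3351, the numbered arrays alone 3241 and 3059, array weights, in which the unnumbered Rsv array had the lowest weight (0.42), 3782 and 3681, a trended prior 3650 and 3407, the mean of features 3453 and 3234, and the 8 arrays alone 3463 and 3402. Leaving out 1 array gave 3040 to 3304 higher and 2750 to 3028 lower. The range was 2 to 5 for chemokines (2 without Th17 2 or Th17 3, and 3 without the unnumbered Eze or Th17 array, Eze 2 or Eze 3), 5 to 9 for the Bcl2 family (5 without Eze 1), 6 to 11 for cytosolic ribosomal proteins (6 without Eze 2 or Eze 3) and 5 to 9 for myeloid markers (5 without Eze 3). Of 304 named genes that were called, 10 lost the call without at least 1 array: Hmgcs1, Il22, Ccl20, Ccl3 and Ddit4 without any 1 of 6 of the 8 arrays, Mir20a without any 1 of 5, Nfe2l2 without Eze 1, 2 or 3 or the unnumbered Th17 array, Pdcd1 without Eze 1 or 3 or Th17 2 or 3, Ccl22 without Th17 3 and Hsd17b7 without Th17 1. Centring ended 6 calls (Ddit4, Hsd17b7, Nfe2l2, Pdcd1, Smad3 and Soat1). The only named gene to turn was Eif4a1, at 0.0133 with the mean of its features.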
